A study of Homo sapiens with 6 samples.

Results

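AC012447.1, RNU4ATAC and CLASP1 are 3 of the 58174 genes in an expression table of PC9 cells, and they share 1 locus on chromosome 2. PC9 is an established human lung adenocarcinoma line. The genes were taken by name because earlier results of this same contrast had drawn attention to the locus, so their values are given as a description with no test. One group of 3 libraries came from PC9 cells given an antagomir against tsRNA-5001a (knockdown), and the other 3 came from PC9 cells given a negative control antagomir. An antagomir is a modified antisense oligonucleotide that blocks a small RNA, and a tsRNA is a fragment of a transfer RNA. The tsRNA itself is not measured by gene counts, and neither dose nor time of the treatment is given in the sources used here.

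RNU4ATAC encodes U4atac, a small nuclear RNA that pairs with U6atac and brings it into the minor spliceosome. That machine also uses U11, U12 and U5 and removes the rare U12-type introns, while the major spliceosome removes all others. Inherited loss of U4atac function causes a severe form of primordial dwarfism. CLASP1 encodes a protein that tracks the growing ends of microtubules and stabilises them in mitosis and at the cell edge. AC012447.1 is an uncharacterised long noncoding RNA, classed as antisense in GENCODE 29, which also tags it as the host of a smaller RNA.

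The 3 genes lie within each other in the GRCh38 annotation. CLASP1 (ENSG00000074054, minus strand) spans chr2:121337776-121649587. AC012447.1 (ENSG00000265451, plus strand) spans chr2:121530422-121532705 and has 2 exons of 354 and 328 bases with an intron of 1602 bases between them. RNU4ATAC (ENSG00000264229, plus strand, 127 bases) lies inside that intron at chr2:121530881-121531007, 105 bases after the end of AC012447.1 exon 1. Both lie in a CLASP1 intron of 75375 bases, between exons 2 and 3 of its 40-exon transcript, and 118706 bases from the CLASP1 start site.

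**Figure D1:**
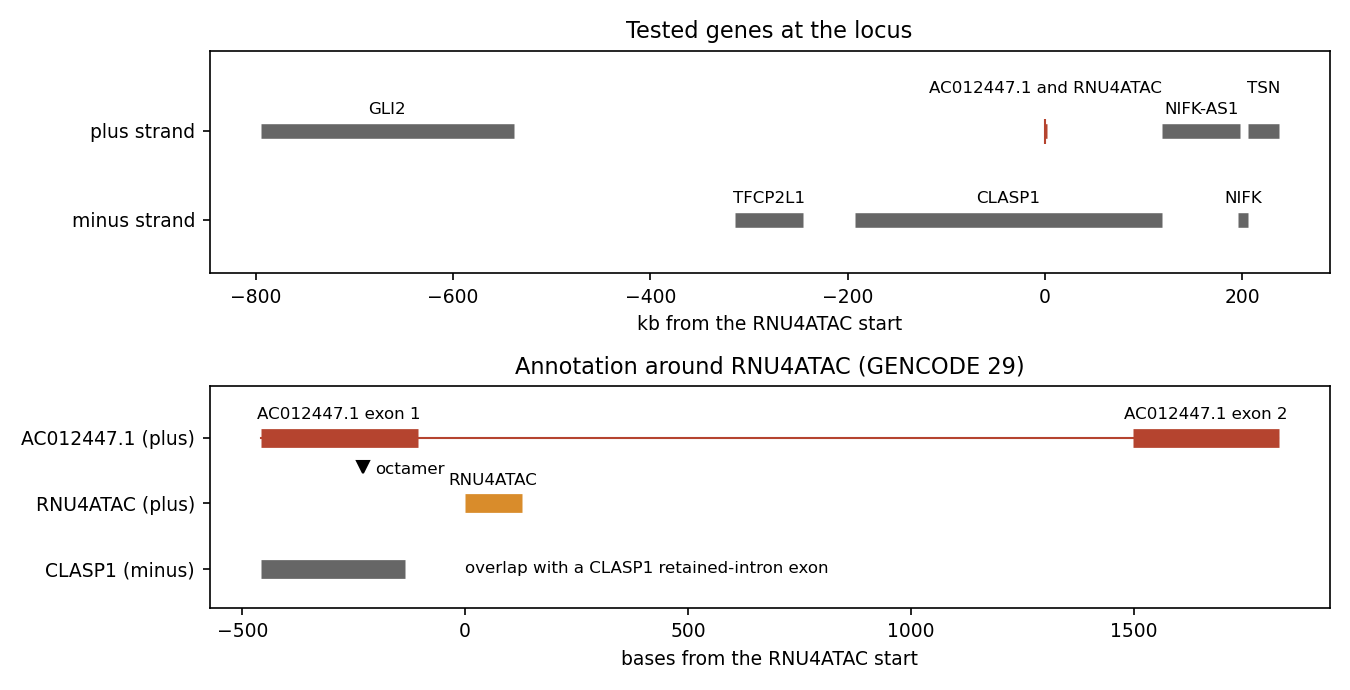
The upper panel maps the tested genes of the locus by strand (bars are gene spans, x axis in kb from the RNU4ATAC start), and the lower panel maps the exons of AC012447.1 and RNU4ATAC in bases from the same point. RNU4ATAC sits between the 2 exons of AC012447.1, the triangle marks the octamer in exon 1, and the grey bar marks the 324 bases shared with a CLASP1 retained-intron exon on the other strand.

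The sequences shown are the U4atac RNA and the end of the AC012447.1 exon that precedes it. They were chosen because RNU4ATAC lies inside AC012447.1 and the octamer lies upstream of it. The counts described next are given per gene and do not show where in a gene the reads lie. The sequences come from the GENCODE 29 transcripts on GRCh38, plus strand, 5′ to 3′. In RNU4ATAC the capitals mark AATTTTTG, a stretch of the type bound by Sm proteins. In the exon they mark ATGCAAAT, the octamer known from promoters of small nuclear RNA genes.

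RNU4ATAC, chr2:121530881-121531007: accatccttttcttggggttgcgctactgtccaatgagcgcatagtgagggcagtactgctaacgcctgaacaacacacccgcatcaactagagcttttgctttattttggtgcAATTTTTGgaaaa

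AC012447.1 exon 1, chr2:121530476-121530775: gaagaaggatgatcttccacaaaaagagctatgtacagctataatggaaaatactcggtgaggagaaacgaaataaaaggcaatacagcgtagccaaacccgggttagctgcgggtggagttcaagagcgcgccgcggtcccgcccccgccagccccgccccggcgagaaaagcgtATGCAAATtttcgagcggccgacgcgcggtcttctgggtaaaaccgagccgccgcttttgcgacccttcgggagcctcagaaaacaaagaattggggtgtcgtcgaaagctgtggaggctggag

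The octamer ATGCAAAT matched once on the plus strand of this exon stretch and not on the minus strand, starting at position 121530652, 229 bases before the RNU4ATAC start. For comparison, 623 of 35116 RefSeq promoters of 300 bases (1.77%) hold it on either strand. The Sm-type stretch AATTTTTG was searched on the sense strand only, and 16 of 100 snRNA transcripts of 117 to 137 bases (16.0%) hold it. RNU4ATAC itself is among these, and related copies were not set aside, so this share is no independent background. These are matches of letters in a window, not mapped binding sites.

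Counts of AC012447.1 and RNU4ATAC were higher in every knockdown library than in every control library, whereas those of CLASP1 overlapped between the groups. AC012447.1 was 127-fold higher on the fitted scale, RNU4ATAC was 22.7-fold higher, and CLASP1 was at 1.07-fold. Each library held 32342017 to 40066223 gene counts in all. Nothing in the labels tells whether replicates were separate cultures, so every error and p-value here reflects library-to-library spread that could be technical.

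AC012447.1 had 698, 699 and 963 counts in the knockdown libraries, given in the order 1 to 3 throughout, against 4, 6 and 7 counts in the controls. After scaling to library size these were 18.4, 20.6 and 22.6 CPM, the counts of a gene scaled to a fixed library total against 0.107, 0.186 and 0.183 CPM. The knockdown libraries lay close together, and the control libraries were all near the floor of detection. The means were 20.5 ± 2.09 CPM after knockdown (SD, n = 3) and 0.159 ± 0.0449 CPM in the control, which is 6.99 ± 0.25 (SE) on the log2 scale. Summed counts were 2360 against 17, a depth-scaled ratio of 131 with a 95% counting interval of 81.6 to 225, which covers counting error only. By fitted fold change AC012447.1 was 7th from the top among 15318 genes with a mean above 0 on the log2 CPM scale.

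RNU4ATAC had 93, 107 and 148 counts after knockdown against 2, 5 and 7 counts in the controls. Scaled, these were 2.46, 3.15 and 3.48 CPM against 0.0535, 0.155 and 0.183 CPM, so every knockdown library was above every control library. The means were 3.03 ± 0.521 CPM (SD, n = 3) and 0.131 ± 0.0683 CPM, a log2 difference of 4.51 ± 0.41 (SE). With only 14 counts over the control libraries against 348, the ratio of 23.4 had a counting interval of 13.8 to 43.3. The gene was 18th by fitted fold change among the same 15318 genes.

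CLASP1 had 3543, 3367 and 2099 counts after knockdown and 4453, 1390 and 2432 counts in the control. At 93.6, 99.1 and 49.3 CPM against 119, 43.1 and 63.7 CPM, the highest and the lowest library were both controls. The means were 80.7 ± 27.3 CPM (SD, n = 3) after knockdown and 75.3 ± 39.3 CPM in the control, a log2 difference of 0.10 ± 0.38 (SE). The difference was well inside the spread between libraries. Its sign turned negative when knockdown 1, knockdown 2, control 2 or control 3 was left out, and without control 1 the log2 fold change was 0.59.

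Libraries of the groups did not overlap for 2 of the 3 genes, both higher after knockdown. Over all 19040 genes tested, 13.4% had knockdown libraries wholly above the control libraries, 1.1% rose past an adjusted p of 0.05 in edgeR's quasi-likelihood test, and 0.0735% fell. The 3 genes were chosen from this contrast, so nothing is read from their share.

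**Figure D2:**
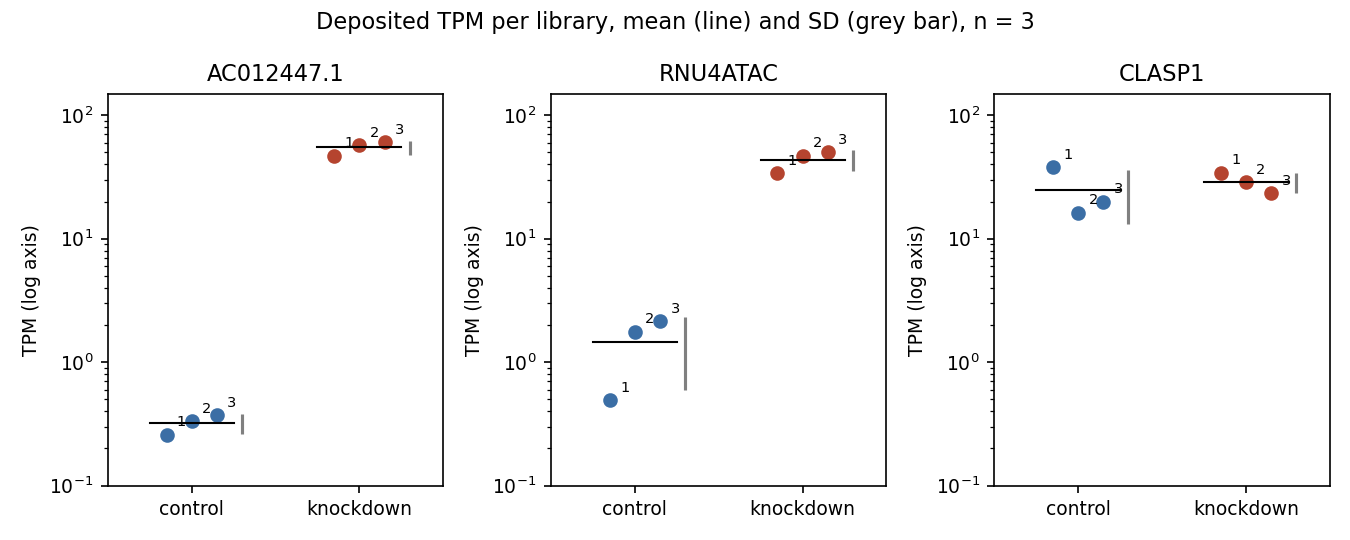
Deposited TPM of AC012447.1, RNU4ATAC and CLASP1 in each library, on a log axis, with a numbered point for each library, a black line at the group mean and a grey bar for the SD (n = 3). AC012447.1 and RNU4ATAC stand at 33.9 to 60.9 TPM in the knockdown libraries and at or below 2.15 TPM in the controls, whereas CLASP1 spans 23.5 to 34.3 TPM after knockdown, inside the 16.2 to 37.9 TPM of the controls.

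Levels per transcript length can be compared between the genes on the deposited scale of TPM, which divides by transcript length. In the control libraries CLASP1 was highest, at 24.7 ± 11.6 TPM (SD, n = 3), followed by RNU4ATAC at 1.47 ± 0.869 TPM and AC012447.1 at 0.321 ± 0.0576 TPM. No control library of any of these genes overlapped a library of the next in that order. For RNU4ATAC and AC012447.1 the order rests on 2, 5 and 7 against 4, 6 and 7 counts. In counts AC012447.1 was equal or higher in each control library, so their order depends on the division by length. In the knockdown libraries the order was reversed, with AC012447.1 at 55.1 ± 7.21 TPM, RNU4ATAC at 43.8 ± 8.78 TPM and CLASP1 at 28.8 ± 5.41 TPM. There each gene overlapped its neighbour in the order, since AC012447.1 began at 47.0 TPM where RNU4ATAC reached 50.4 TPM, and RNU4ATAC began at 33.9 TPM where CLASP1 reached 34.3 TPM. How effective length was set for a gene as short as RNU4ATAC is not given in the sources used here, and this bears on its TPM.

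The level of AC012447.1 relative to CLASP1 therefore differed by library group. The TPM ratio of AC012447.1 to CLASP1 was 1.37, 2.0 and 2.60 after knockdown, against 0.00683, 0.0205 and 0.0186 in the controls. CLASP1 CPM did not stand in a fixed ratio to its TPM. The ratio ran from 2.10 in knockdown 3 to 3.45 in knockdown 2, and the control libraries lay between, at 3.15, 2.65 and 3.18.

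The share of RNU4ATAC in the summed counts of RNU4ATAC and AC012447.1 was lower in each knockdown library than in each control library. RNU4ATAC made up 11.8% of the summed counts of both genes in knockdown 1 (93 of 791, 95% Wilson interval 9.70% to 14.2%). In knockdown 2 its share was 13.3% (107 of 806, 11.1% to 15.8%), and in knockdown 3 it was also 13.3% (148 of 1111, 11.5% to 15.5%). The 3 knockdown libraries thus gave shares whose intervals overlapped. In the control libraries the shares were 33.3% (2 of 6, 9.68% to 70.0%), 45.5% (5 of 11, 21.3% to 72.0%) and 50% (7 of 14, 26.8% to 73.2%). Over the summed libraries RNU4ATAC held 12.9% after knockdown (11.6% to 14.2%) and 45.2% in the control (29.2% to 62.2%). These intervals cover counting error only, not the spread between libraries, and the interval of control 1 spans all 3 knockdown shares. No difference in share was tested.

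**Figure D3:**
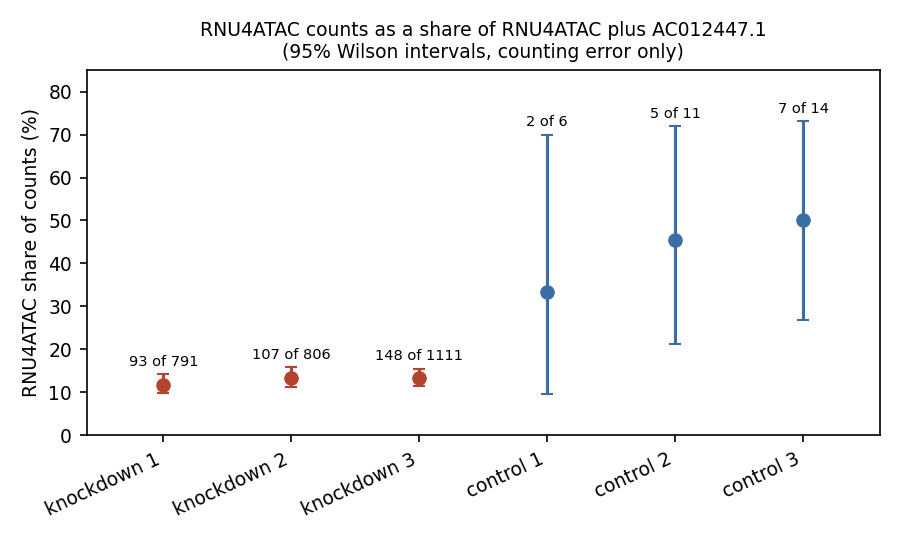
Share of RNU4ATAC in the summed counts of RNU4ATAC and AC012447.1, in percent, per library, with 95% Wilson intervals as bars. The knockdown shares lie between 11.8% and 13.3%, while the control shares lie between 33.3% and 50% with wide intervals because they rest on 6 to 14 counts.

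Shared sequence limits which gene a read can be given to. Of the 652 stretches of 31 bases in the AC012447.1 transcript, 294 also occur in transcripts of another gene, and that gene is CLASP1 alone, on the other strand. They come from a retained-intron transcript, CLASP1-213, whose exon 1 covers 324 bases of AC012447.1 exon 1. Whether counting used strand is not given in the sources used here, so reads from those bases cannot be told apart between the 2 genes. RNU4ATAC shares none of its 97 such stretches with an annotated transcript of another gene. Introns were not compared, and RNU4ATAC lies in introns of AC012447.1 and CLASP1. Reads of unspliced RNA from either gene could therefore carry its sequence, which was not tested. Its 17 annotated pseudogenes are 72.5% to 89.8% identical to it in local alignment, and 14 of them had 0 counts in all 6 libraries. RNU4ATAC18P had the most, with 4, 2 and 11 counts after knockdown and 0, 3 and 3 in the control.

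The other small nuclear RNAs of the minor spliceosome were barely counted. RNU11, which recognises the start of a U12-type intron, had 17, 8 and 1 counts after knockdown against 1, 3 and 3 in the controls. RNU6ATAC, the pairing partner of U4atac and part of the catalytic core, had 7, 4 and 2 against 3, 0 and 6 counts. RNU12, which pairs with the branch site, was listed at 0 in all 6 libraries. None of these 3 passed the filter on low counts, and only RNU4ATAC of the 4 was fitted. No statement on the other snRNAs is possible from these counts. How far the libraries captured RNAs this short was not tested, and that bears on RNU4ATAC too. The RNU4ATAC fold is thus a change in gene counts, not a measured level of U4atac RNA. All bases of RNU12 also lie in Z93241.1, described below, and how reads there were assigned is not given in the sources used here.

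**Figure D4:**
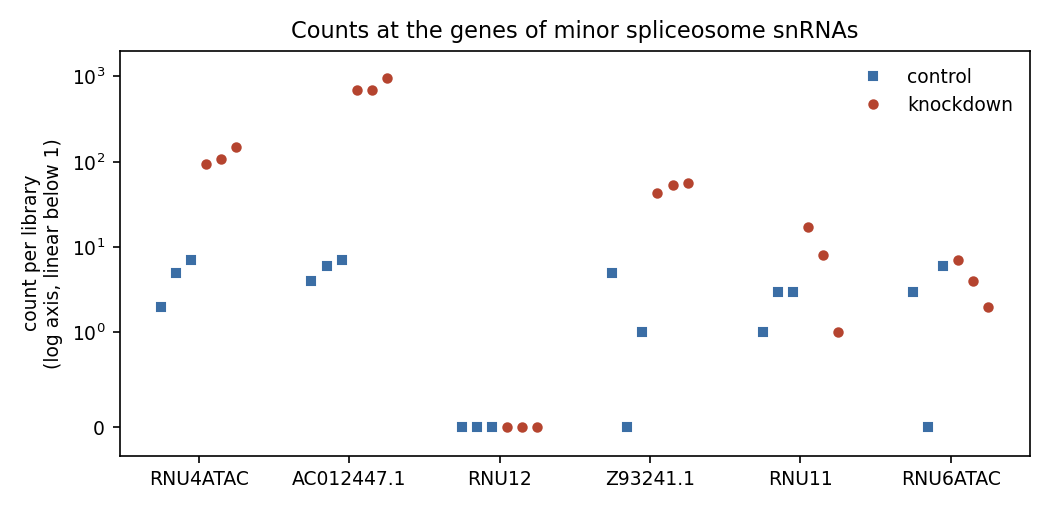
Counts per library (log axis, linear below 1) of the 4 minor spliceosome snRNA genes, of AC012447.1, and of Z93241.1, the gene that covers RNU12, with blue squares for control and red circles for knockdown. RNU4ATAC reaches 148 counts and Z93241.1 57 in the knockdown libraries, while RNU11 and RNU6ATAC stay at or below 17 and RNU12 is at 0 throughout.

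A gene that overlaps RNU12 was counted, and it is shown as another noncoding gene that overlaps a minor snRNA gene. The arrangement differs, since RNU4ATAC lies in an intron of AC012447.1 whereas RNU12 lies in the exon of Z93241.1. Z93241.1, a long noncoding RNA of 1 exon at chr22:42615244-42615907 on the plus strand, starts at the RNU12 start and holds all 150 of its bases. It was singled out after its values were seen. Of 96 snRNA transcripts of 140 to 160 bases, RNU12 itself among them, 27 (28.1%) hold the same Sm-type stretch. The RNU12 sequence, from the GENCODE 29 transcripts on GRCh38 with that stretch in capitals, is the following.

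RNU12, chr22:42615244-42615393: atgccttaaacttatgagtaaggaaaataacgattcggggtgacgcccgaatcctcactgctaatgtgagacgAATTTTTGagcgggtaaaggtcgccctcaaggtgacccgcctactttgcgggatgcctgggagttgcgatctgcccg

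Z93241.1 had 43, 53 and 57 counts after knockdown and 5, 0 and 1 in the control, at 1.35 ± 0.212 CPM (SD, n = 3) against 0.0533 ± 0.0708 CPM. It passed edgeR's quasi-likelihood test and rose by 4.52 ± 0.68 (SE) on the log2 scale (adjusted p 0.0218). The call was lost when knockdown 1 (adjusted p 0.0599), knockdown 2 (0.0935), knockdown 3 (0.0785) or control 3 (0.0833) was left out. How the authors' counting assigned reads in the bases shared with RNU12 is not given in the sources used here.

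RNU4ATAC was also set beside the other genes annotated as snRNAs, a comparison chosen after the values were seen. Of 29 tested, 6 rose and 1 fell in edgeR's test (24.1%, against 1.17% of all genes), with a median log2 fold change of 0.62. The 6 that rose are all genes or variants of U1, the RNA that recognises the start of the common introns. The most abundant of these, a U1 gene at 145465617 on chromosome 1 (ENSG00000270722), had 417, 485 and 554 counts after knockdown against 8, 20 and 27 in the controls, or 4.63 ± 0.37 (SE) in log2 (edgeR adjusted p 0.00293). RNVU1-7, a variant U1 gene, had 325, 404 and 389 counts against 27, 52 and 104 (edgeR adjusted p 0.0313).

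The U1 genes of standard sequence and the major-spliceosome counterparts of U4atac did not pass. RNU1-1 had 52, 46 and 82 counts after knockdown against 18, 35 and 56, and RNU1-2 had 55, 52 and 93 against 35, 69 and 120. RNU4-1 had 36, 26 and 59 counts against 11, 34 and 48, and RNU4-2 had 14, 62 and 39 against 7, 34 and 55, so the groups overlapped for each of these 4 genes. RN7SK, the RNA that holds the elongation factor P-TEFb inactive, was at 12.7 ± 4.44 CPM (SD, n = 3) after knockdown and 12.2 ± 3.97 CPM in the control. RNU2-2P, a U2 gene, went the other way and fell, with exactly 1 count in each knockdown library against 11, 26 and 13 (edgeR adjusted p 0.0473). U1, U2 and U4 genes have near-identical copies, so how reads were placed among them is uncertain, and with any 1 library left out only 1 to 3 of these snRNA genes passed.

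The lists that follow are read against the shares over all tested genes, of which 1.17% passed edgeR's adjusted p, 16.5% had an unadjusted p under 0.05 and 3.69% were called by DESeq2. At such shares a short list with 0 calls is no result about its members. Of 13 tested genes for proteins particular to the minor spliceosome, 0 passed edgeR's adjusted p, 0 had an unadjusted p under 0.05, and DESeq2 called 0. Their median log2 fold change was 0.05, the same as the 0.05 over all tested genes, with 8 genes above 0 and 5 below. Among the most abundant, ZCRB1, a protein of the U11/U12 particle, was at 34.5 ± 7.99 CPM (SD, n = 3) after knockdown and 33.5 ± 2.51 CPM in the control. SCNM1, a splicing factor of the minor spliceosome, was at 32.8 ± 0.601 against 31.7 ± 4.93 CPM. SNRNP25, a U11 protein, had the lowest log2 fold change of the list, -0.39 (24.7 ± 5.71 against 32.4 ± 0.796 CPM, edgeR adjusted p 0.327), and RNPC3, which binds U12 RNA, had the highest, 0.35. ZMAT5, another protein of the same particle, was at 26.2 ± 4.92 against 28.0 ± 3.71 CPM.

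Proteins of the tri-snRNP, the particle in which U4 or U4atac is carried together with U6 or U6atac and U5, were counted in the same way. Of 31 tested, 0 passed edgeR's adjusted p, against 1.17% over all genes. There were 8 at an unadjusted p under 0.05 (16.5% over all genes), and DESeq2 called 2, SNU13 and LSM7 (3.69% over all genes). Their median log2 fold change was -0.14 against 0.05 over all genes, with 24 genes below 0. Scaling by library size only moved the median of all genes to 0.17 and that of this list to -0.02, with 19 below 0. SNRNP200, the helicase that unwinds the U4/U6 pair, was at 902 ± 104 CPM (SD, n = 3) after knockdown and 830 ± 102 CPM in the control. PRPF8, the central U5 protein, was at 475 ± 59.3 against 448 ± 53.4 CPM, and PRPF6, a bridge within the particle, at 273 ± 28.8 against 277 ± 1.99 CPM.

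SNRPB, an Sm protein of the ring around the Sm-type stretch, was at 466 ± 59.7 CPM (SD, n = 3) after knockdown and 586 ± 50.5 CPM in the control, or -0.33 in log2 (edgeR adjusted p 0.262). SNU13 binds the 5′ stem-loop of U4 and U4atac directly and was picked out after its values were seen. It was at 63.5 ± 8.02 CPM (SD, n = 3) against 100 ± 17.1 CPM, or -0.66 ± 0.16 (SE) in log2 (edgeR adjusted p 0.123). DESeq2 gave SNU13 an adjusted p of 0.018, so its call rests on the tool.

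**Figure D5:**
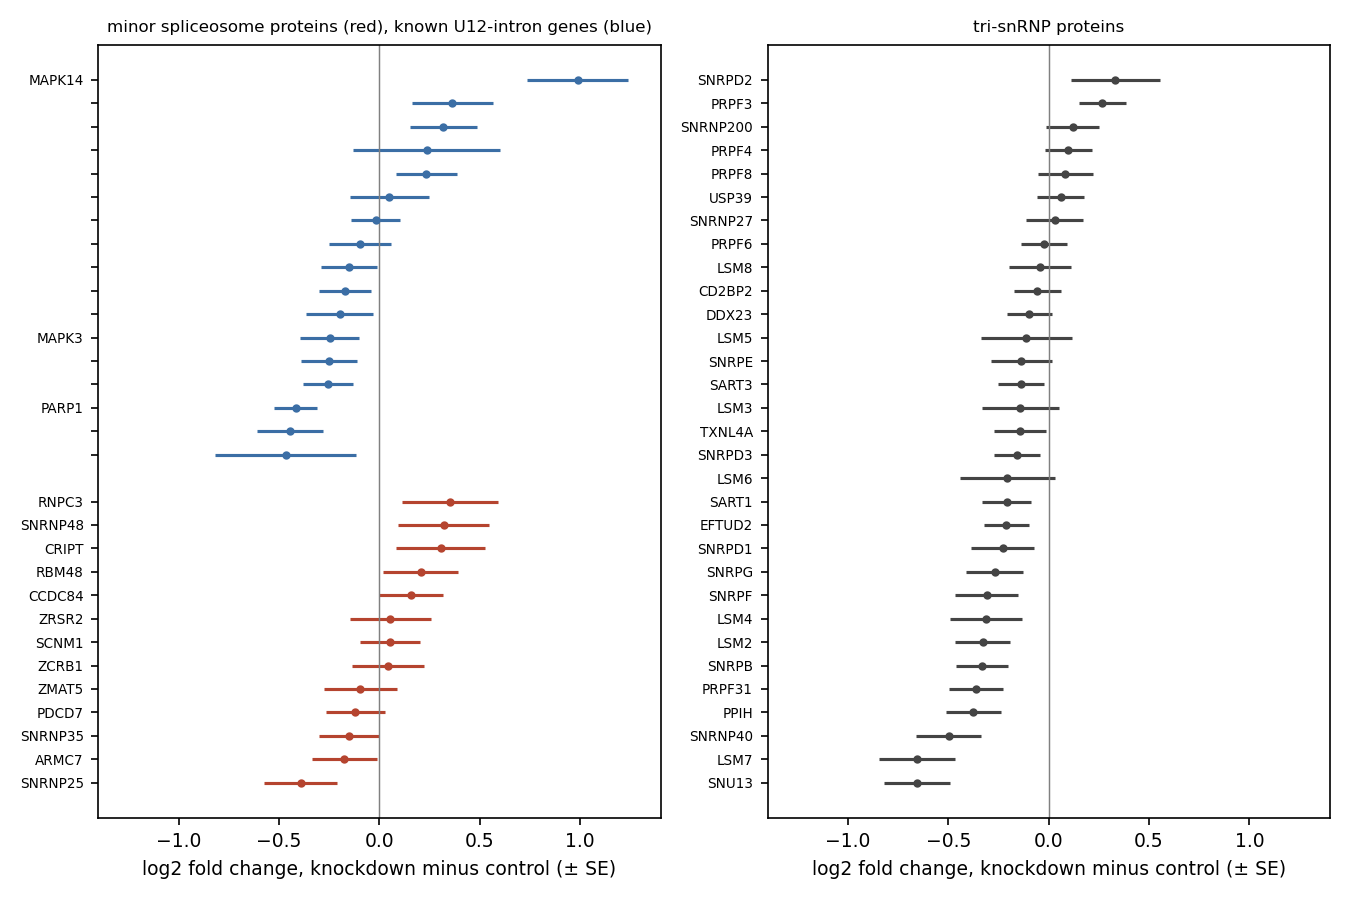
Log2 fold change (knockdown minus control) of tested genes, each with its standard error as a bar, for minor spliceosome proteins (red), known U12-intron genes (blue, labelled where the text names them) and tri-snRNP proteins (black). Of the tri-snRNP proteins 24 lie below 0, 2 of the 19 U12-intron genes are not shown, 0 genes of these lists passed edgeR's test, and the highest point is MAPK14 at 0.99.

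Genes long known to hold a U12-type intron, the substrate of the minor spliceosome, were measured by their total counts, which do not show whether the intron was removed. Of 19 tested, 0 passed edgeR's adjusted p (1.17% over all genes) and 3 had an unadjusted p under 0.05, near the 16.5% over all genes. DESeq2 called 2, PARP1 and MAPK14 (3.69% over all genes). Their median log2 fold change was -0.13, with 13 below 0, and -0.00 with 10 below 0 under scaling by library size only. PARP1, a DNA repair enzyme, was at 297 ± 13.3 CPM (SD, n = 3) after knockdown and 397 ± 25.6 CPM in the control, or -0.42 in log2 (adjusted p 0.125 in edgeR and 0.0456 in DESeq2). MAPK3, a kinase gene, was at -0.25 in log2 (edgeR adjusted p 0.440).

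MAPK14, the p38 stress kinase, was named after its values were seen. It was at 75.6 ± 25.4 CPM (SD, n = 3) after knockdown and 38.2 ± 4.91 CPM in the control, or 0.99 ± 0.25 (SE) in log2 (edgeR adjusted p 0.125). Leaving out knockdown 2, or using DESeq2, brought it past the threshold, with a lowest adjusted p of 0.0103.

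Partners of CLASP1 at microtubule ends and at the cell cortex were read against the same shares. Of 19 tested, 0 passed edgeR's adjusted p and 0 were called by DESeq2 (1.17% and 3.69% over all genes), while 2, SPAG5 and PHLDB2, had an unadjusted p under 0.05 (16.5%). Their median log2 fold change was 0.00, with 10 above 0 and 9 below. CKAP5, a microtubule polymerase, was at 243 ± 23.4 CPM (SD, n = 3) after knockdown and 242 ± 27.1 CPM in the control. MAPRE1, the end-binding protein that recruits CLASP1, was at 154 ± 29.5 against 156 ± 5.87 CPM. GSK3B, the kinase that releases CLASP proteins from microtubules, was at 160 ± 19.1 against 143 ± 10.9 CPM, and MACF1, a linker of microtubules to actin, at 164 ± 12.1 against 137 ± 38.0 CPM.

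Few genes around the locus were counted deeply enough to be tested. Within 500 kb of CLASP1 the table lists 16 other rows, of which 5 were tested and 0 passed edgeR's test, with 0 at an unadjusted p under 0.05 and 0 called by DESeq2. With 5 genes and shares of 1.17%, 16.5% and 3.69% over all genes, these zeros do not set the neighbours apart. NIFK-AS1 starts 118.8 kb from RNU4ATAC next to the CLASP1 start site and was at 2.12 ± 0.374 CPM (SD, n = 3) after knockdown and 2.14 ± 0.413 CPM in the control. NIFK, a nucleolar protein gene, was at 33.9 ± 5.64 against 35.3 ± 3.56 CPM. TFCP2L1, a transcription factor gene 245.7 kb to the other side, was at 8.98 ± 0.254 against 7.26 ± 0.637 CPM, with libraries that did not overlap and an edgeR adjusted p of 0.377. TSN, which encodes translin, had 1137, 4455 and 4340 counts after knockdown and 2194, 1752 and 3141 in the control, so it overlapped. GLI2, a Hedgehog pathway transcription factor gene, was at 17.7 ± 4.32 against 15.1 ± 2.75 CPM. LINC01823 was too low to be tested, with 4, 7 and 3 counts after knockdown and 0 in each control library.

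The position of the noncoding genes was also compared with that of other genes placed in the same way, leaving the 3 genes out. Of 1669 tested genes that lie wholly inside a longer gene on the opposite strand, as AC012447.1 does, 17 rose and 1 fell in edgeR's test (1.08%, against 1.17% of all genes). Their median log2 fold change was 0.11. OAS2, an interferon-induced enzyme gene, rose from 1.21 ± 0.276 to 6.65 ± 0.743 CPM (SD, n = 3), or 2.46 in log2 (edgeR adjusted p 0.00411). The noncoding AC087203.1 rose from 0 counts in each control library to 79, 68 and 106, a call held in 13 of 14 alternatives and lost with the replicate number as a block (adjusted p 0.0572). AC007032.1 (log2 fold change 2.25, edgeR adjusted p 0.0167) and AC107959.3 (1.28, edgeR adjusted p 0.0296) also rose, and these calls held in 9 and 6 of 14 alternatives.

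Of 1014 tested genes inside a longer gene on the same strand, 6 rose and 3 fell (0.888%), with a median of 0.09. SNORD3D, a copy of the U3 snoRNA gene that guides ribosomal RNA processing, rose from 0.176 ± 0.0649 to 2.12 ± 0.330 CPM (SD, n = 3), or 3.57 in log2 (edgeR adjusted p 0.00465). All 5 tested U3 genes rose in edgeR's test (1.1% of all genes rose), a comparison added after the values were seen. Their log2 fold changes were 2.34 to 3.57. With any 1 library left out 3 to 4 of them passed, and 2 passed with the replicate number as a block. PDXDC2P, a pseudogene, rose by 3.81 in log2 (edgeR adjusted p 0.0202) and kept the call in 6 of 13 alternatives. RN7SL2, a gene for the RNA of the signal recognition particle, fell by 1.22 in log2 (edgeR adjusted p 0.0319) and kept the call in 8 of 14. SNORD118, which encodes the U8 snoRNA, and RNU2-2P are the others that fell, and SNORD118 stood at 1 count in each knockdown library against 28, 24 and 47. U3 and signal recognition particle RNAs have near-identical copies, so reads of SNORD3D and RN7SL2 could have been split or placed among them.

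Genes that are neither protein coding nor small RNAs and that overlap a small RNA gene were tested in 262 cases, of which 4 rose and 0 fell (1.53%, against 1.17% of all genes). Their median log2 fold change was 0.18. SNHG12, a spliced host gene of snoRNAs, rose from 16.1 ± 2.55 to 29.8 ± 2.21 CPM (SD, n = 3), or 0.89 in log2 (edgeR adjusted p 0.0455). That call held in 5 of 14 alternatives and was lost whichever library was left out. Z93241.1, CFLAR-AS1 and FLJ31104 are the others of the 4.

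Gene patterns most like CLASP1 over the 6 libraries were found among 15154 genes by Pearson's r of log2(CPM + 0.5). MFHAS1 (r = 0.9847), AC145124.1 (0.9809), CDCP1 (0.9803), MAP4K4 (0.9663) and ANKRD61 (0.9650) came first. Whether a search over so many genes would give such values by itself was not tested. Pearson's r also leaves out the size of the differences. MFHAS1 was at 35.9 ± 1.33 CPM (SD, n = 3) after knockdown and 35.3 ± 2.32 CPM in the control. CLASP1 was at 80.7 ± 27.3 and 75.3 ± 39.3 CPM, and ANKRD61 at 1.47 ± 0.371 and 1.31 ± 0.760 CPM. For AC012447.1 the libraries fall into the 2 treatment groups, so no r is given, and the 5 genes that came first were LINC01647, AC087203.1, SYNE1, ARC and LINC01447. These are descriptions over 6 libraries that differ in depth and fall into 2 treatment groups.

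Markers of other cell types were checked because whole cultures were sequenced, where fewer cells of a type and less RNA per cell cannot be told apart. Summed CPM of the 10 epithelial and lung adenocarcinoma markers was 11060 to 14070 after knockdown and 13040 to 14460 in the control, with the surfactant gene SFTPB at 0 to 2 counts. Of the 9 tested, 4 had a log2 fold change above 0 and 5 below. The highest, NKX2-1, had 34, 31 and 24 counts after knockdown against 3, 12 and 0 (edgeR adjusted p 0.220). The 6 fibroblast markers summed to 41.2 to 61.1 CPM against 40.1 to 47.0 CPM, with LUM at 0 in all libraries. All 3 tested had a log2 fold change above 0, and 1 of them, PDGFRB, rose in edgeR's test (1.17% of all genes passed). The 6 immune markers summed to 61.3 to 77.6 against 58.8 to 70.8 CPM, and the 4 endothelial markers to 31.4 to 40.6 against 20.8 to 37.3 CPM. Their part in the values of the locus was not tested.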

How the data were processed

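Total RNA of 3 knockdown and 3 control libraries was sequenced on an Illumina platform, mapped and counted per gene, per the labels' protocols. No aligner, counter or strand setting is given in the sources used here. The authors deposited whole-number counts, TPM and FPKM for each gene and library. The deposited counts were tested, the deposited TPM were used to compare levels between genes, and the deposited FPKM were not used. The submitters' processing notes name hg19, but 56007 of 57836 genes shared with GENCODE 29 (96.8%) have its GRCh38 positions in the table, so coordinates are GRCh38.

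The filter was filterByExpr (minimum 10 counts) and scaling was by TMM. Genes were then tested with edgeR 4.0.16 (quasi-likelihood, Benjamini-Hochberg, adjusted p under 0.05) in R 4.3.3. All 6 libraries entered 1 fit without covariates. CPM use TMM-scaled totals. Standard errors were derived from the fold change and its F statistic. Totals of 32342017 to 40066223 counts per library set the precision. Libraries of a group differed by 32.4 to 83.3 in chi-square per degree of freedom, more than counting error alone gives. Each library entered as 1 replicate, though the labels do not tell whether replicates were separate cultures.

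The members and gene lists were chosen with earlier results of these data known. Named genes were the 3 members, tested neighbours within 500 kb, the 4 most abundant tested members of each list, all minor spliceosome snRNAs, up to 4 called genes of each positional set at a mean of at least 1 CPM, and the 5 genes most like AC012447.1 and CLASP1. The comparisons with other snRNA and U3 genes, and Z93241.1, SNU13 and MAPK14, were added after their values were seen. Some genes that this rule names are not reported here. Alternatives were other scalings and filters, DESeq2 1.42.0, limma-voom (limma 3.58.1), a replicate block and leaving out each library. The script was tested on simulated data with 200 changed genes. Figures were drawn with matplotlib 3.10.9.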

Additional observations from a re-analysis of the deposited data

How the results depend on the processing

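The 223 genes past edgeR's test became 147 with no filter, 143 with a stricter filter of 50 counts, 34 with the replicate number as a block, 701 with DESeq2, and 64 to 114 when 1 library was left out. The numbers did not pair the libraries (correlations of deviations 0.00639, -0.0985 and -0.0326). The log2 fold change of AC012447.1 was 7.42 as a ratio of mean deposited TPM, an alternative chosen after seeing the data, and 6.77 to 7.12 without 1 library. That of RNU4ATAC was 4.13 to 4.85 and that of CLASP1 -0.18 to 0.59 without 1 library. The 18 calls among opposite-strand genes (17 higher, 1 lower) became 8 with no filter, 10 with the stricter filter and 1 with the block. Without 1 library they were 3 to 8. DESeq2 called 81 opposite-strand genes, 46 higher and 35 lower. When the host had to be an intron of a protein-coding gene, 5 of 621 tested genes passed (0.805%, against 1.17% of all genes). The 9 same-strand calls (6 higher, 3 lower) became 14 by library size only, 2 with the stricter filter and 1 with the block. Without 1 library they were 3 to 8. DESeq2 called 40 same-strand genes, 21 higher and 19 lower. In introns 2 of 446 tested genes passed (0.448%). The 4 calls overlapping a small RNA gene, all higher, became 2 with DESeq2 size factors and 8 by library size only. They were 1 with no filter, 2 with the stricter filter, 0 with the block and 0 to 2 without 1 library. The 1 call without knockdown 2 was a fall, and DESeq2 called 14 genes, 12 higher and 2 lower. The 7 calls among other snRNA genes became 2 with the stricter filter, 1 with the block and 1 to 3 without 1 library, and the 5 among U3 genes became 2 with the block and 3 to 4 without 1 library. With DESeq2 2 known U12-intron genes and 2 tri-snRNP genes were called, and 0 to 1 U12-intron genes without 1 library.

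Log2 fold changes that changed sign were all small. By library size only they were 0.0704 for NIFK, 0.115 for NIFK-AS1, 0.0306 for ZMAT5, 0.0989 for PRPF6 and 0.11 for MAPRE1. With the stricter filter they were 0.0149 for NIFK-AS1, 0.00202 for PRPF6 and 0.00857 for MAPRE1, and with upper-quartile scaling 0.00563 for NIFK-AS1. CKAP5 was at -0.027 with DESeq2 size factors and with DESeq2, and at -0.000159 with no filter. Without 1 library the ranges were -0.18 to 0.0215 for NIFK, -0.139 to 0.151 for NIFK-AS1, -0.176 to 0.114 for ZCRB1, -0.0595 to 0.165 for SCNM1, -0.208 to 0.0425 for ZMAT5, -0.015 to 0.215 for SNRNP200, -0.0499 to 0.163 for PRPF8, -0.15 to 0.0366 for PRPF6, -0.09 to 0.0514 for CKAP5 and -0.192 to 0.0395 for MAPRE1. The cause of these shifts was not tested. Z93241.1 lost its call with the block (adjusted p 0.128). OAS2 and SNORD3D kept theirs in 14 of 14 alternatives. A list of genes with a U12-type 5′ splice site was not run, since no genome sequence was used here. Control counts of 4 to 7 for AC012447.1 and 2 to 7 for RNU4ATAC limit how well their folds are known.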
